A study of Mus musculus with 12 samples.

Results

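The genes described here are 48 mouse genes that carry cells through the G1/S transition and copy DNA: origin licensing and helicase genes, the polymerases and their clamp, deoxynucleotide and chromatin assembly genes, G1 cyclins with their kinases, and E2F1 and E2F2. They were taken by symbol from 53465 genes in a table of read counts, all 48 were found, and all 48 were abundant enough to be tested. The 12 bulk RNA libraries come from mouse hematopoietic stem cells (HSCs) of bone marrow, the rare cells that renew blood. They form 4 groups of 3 samples, each in culture for 2 days: long-term HSCs (LT-HSCs) with 1 mM nicotinamide riboside (NR), LT-HSCs in control culture, short-term HSCs (ST-HSCs) with NR, and ST-HSCs in control culture. NR is a vitamin B3 form from which cells make the cofactor NAD, and it was renewed at 24 h. Stemline II was the medium of every group, and it held SCF (100 ng/ml) and Flt3 ligand (2 ng/ml), cytokines that support survival and division, so the controls are cytokine-stimulated cells and not resting marrow. Both populations were sorted as lineage-negative, Kit+, Sca1+, CD150+ and CD48-; LT-HSCs were CD34- and ST-HSCs CD34+. The labels give neither strain nor age nor any genetic change. They do not say whether samples of a group came from separate mice or cultures, so a p-value here speaks only to the spread among the samples themselves, part or all of which may be technical.

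Before S phase, the origin recognition complex, CDC6 and CDT1 load the MCM2 to MCM7 ring onto DNA, and CDC45 and the GINS complex later turn that ring into the replicative helicase. D-type cyclins with CDK4 or CDK6, and E cyclins with CDK2, phosphorylate the retinoblastoma protein and its relatives; this frees E2F factors, which drive transcription of many of the genes described here. HSCs are largely quiescent in marrow and enter the cycle when cultured with cytokines. In RNA from a bulk sample, fewer cells in S phase and less of the transcript per cell cannot be told apart.

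Between 24589718 and 35456821 reads per library fell in genes. The share of reads outside every annotated gene ranged over 8.69% to 28.6% (median 12.1%). Sample 3 of the NR LT-HSCs (28.6%) and sample 3 of the NR ST-HSCs (26.2%) stood apart from the other 10 libraries, whose highest share was 17.0%, so counts of changed genes are also given without them. Cd34, the marker that split the populations in the sort, had 242 ± 21 and 259 ± 11.5 CPM (read counts scaled to a common library size; mean ± SD, n = 3 each) in NR and control LT-HSCs and 704 ± 37.7 and 627 ± 18.8 CPM in NR and control ST-HSCs, higher in ST-HSCs in both cultures. Kit lay between 1344 and 1716 CPM and Cd48 between 0.259 and 6.25 CPM in all libraries. Of the sort markers, Slamf1 (CD150) was lower with NR in ST-HSCs (log2 change -0.65 ± 0.14). Among markers of other lineages, Hba-a1, Cd79a and Cd3e stayed at or under 0.703 CPM in every library, but other genes of the lists were expressed. The 8 granulocyte and monocyte genes summed to 369 to 536 CPM in NR LT-HSCs and 373 to 455 CPM in control LT-HSCs, and to 406 to 498 CPM in NR ST-HSCs and 345 to 397 CPM in control ST-HSCs. Cd68 was higher with NR in both (0.84 and 2.17) and Lyz2 in ST-HSCs (0.40). Of these 8 genes, 4 had negative changes in LT-HSCs and 3 in ST-HSCs, and 0 passed as lower in either population. The 6 erythroid genes summed to 66.7 to 76.0 CPM in NR LT-HSCs and 91.9 to 98.3 CPM in control LT-HSCs, and to 33.3 to 39.8 CPM in NR ST-HSCs and 50.1 to 60.4 CPM in control ST-HSCs, with Epor lower in both (-0.71 and -1.04). The 6 lymphoid genes summed to 9.5 to 11.3 CPM in NR LT-HSCs and 17.5 to 24.1 CPM in control LT-HSCs, and to 33.6 to 38 CPM in NR ST-HSCs and 76.4 to 80.7 CPM in control ST-HSCs, with Nkg7 lower in both (-1.46 and -1.18). Of the 4 lymphoid genes tested, Nkg7 was the only 1 with a negative change in each population. The other 3 had positive changes that did not pass. Megakaryocyte genes were the most abundant of these lists: their summed level ran from 1850 to 2510 CPM in NR LT-HSCs against 3020 to 3460 CPM in control LT-HSCs, and from 1700 to 2220 CPM in NR ST-HSCs against 2950 to 3260 CPM in control ST-HSCs. With NR, 3 of these 6 genes passed the test as lower in LT-HSCs and 4 in ST-HSCs, beside the falls described below. The part of all these markers in those falls was not tested.

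All levels below are CPM scaled by edgeR's TMM factors, and a log2 change is the NR level over the control level unless stated otherwise. Set against exon length, the ring subunits Mcm6 and Mcm3 led the 48 genes: averaged over the 12 libraries, Mcm6 reached 239 CPM per kilobase of exon and Mcm3 reached 191. Cdk4 followed at 180 and Mcm5 at 159 CPM per kilobase. At the low end were E2f2 at 5.51, Fen1 at 5.84, Orc1 at 9.34 and Ccne1 at 10.4 CPM per kilobase. Fen1 encodes the nuclease that trims Okazaki fragments, and 84.2% of its exonic bases also lie in exons of the opposite-strand genes Tmem258 and Gm10143. Whether reads were counted by strand is not given in the sources used here, so its level and that of Gins2 (67.3% shared, with Gse1), Chaf1a (52.5%, with Ubxn6) and Ccnd1 (23.4%) are uncertain. Of the other members, 27 share no exonic base with another gene and the remaining 17 share under 20%. Pcna, Tyms and Ccnd3 have pseudogenes that could take or give reads.

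The comparison of NR with control culture asked how the replication program of each population responded to the NAD precursor. With NR, 12 of the 48 genes fell in LT-HSCs and 19 fell in ST-HSCs, and no member passed the test as higher in either population. The 9 that fell in both were the helicase subunits Mcm2, Mcm5 and Mcm7, the kinases Cdk4 and Cdk6, cyclin D1 (Ccnd1), the phosphatase Cdc25a, the dUTPase Dut, and the chromatin assembly subunit Chaf1a. The falls were modest: the called log2 changes ran from -0.20 (Chaf1a) to -0.69 (Cdk6) in LT-HSCs and from -0.22 (Rrm1) to -0.54 (Cdk6) in ST-HSCs. The median log2 change of the 48 genes was -0.18 in LT-HSCs, against 0.04 over all 19830 genes tested and -0.06 over the 10473 genes at 5 CPM or more. It was -0.17 in ST-HSCs, against -0.03 and -0.08. Without NR ST-HSC sample 3, the median of the 48 in ST-HSCs was -0.06 with the same genes tested and -0.03 with the filter on low counts applied again; with DESeq2 or relative log expression factors it was -0.10 in ST-HSCs and -0.13 in LT-HSCs. The distance from the median of genes at 5 CPM or more was -0.10 in ST-HSCs with TMM, DESeq2 and relative log expression factors alike. Genes were called at a Benjamini-Hochberg adjusted p under 0.05 in edgeR's quasi-likelihood test. Over all genes tested, 7.58% were called lower and 2.38% higher in LT-HSCs, and 11.1% lower and 5.82% higher in ST-HSCs. Among genes at 5 CPM or more, 14% were lower in LT-HSCs and 20% in ST-HSCs, beside 25% and 39.6% of the 48. That background is fairer for these abundant transcripts but was not matched to their levels, which mostly lie far above 5 CPM. At an unadjusted p under 0.05, 25 members were lower and 0 higher in each population. The share of all genes at that unadjusted threshold was not computed, so these counts stand without a background. DESeq2 called 0 members higher in LT-HSCs and 1, Ccnd3, in ST-HSCs, and limma-voom called 0 in both. Over all genes, DESeq2 called 996 higher and 1528 lower in LT-HSCs, and 1911 higher and 1830 lower in ST-HSCs. With limma-voom these were 642 and 1706 in LT-HSCs, and 1372 and 2468 in ST-HSCs. The scaling moved the balance of calls in ST-HSCs: over all genes, 1155 were higher and 2193 lower with TMM factors, 1662 and 1552 with relative log expression factors, and 1753 and 1908 with upper-quartile factors. Among the 48 in ST-HSCs the counts were 1 higher and 13 lower with relative log expression factors and 2 higher (Ccnd3 and Rfc2) and 16 lower with upper-quartile factors.

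Averaged over both populations, 27 members fell and 0 rose in edgeR's test (16.1% of all genes tested were lower and 7.88% higher, and 28.6% and 12.7% of genes at 5 CPM or more; 31 members were lower and 0 higher at an unadjusted p under 0.05). The share of all genes at that unadjusted threshold was not computed for the average either. DESeq2 called 21 members lower and 2 higher (Ccnd3 and E2f1), and limma-voom 29 lower and 0 higher. Over all genes, DESeq2 called 2593 lower and 2475 higher, and limma-voom 3266 lower and 1756 higher. Of the 27, 5 (Ccnd2, Lig1, Mcm6, Orc6 and Rfc1) were called only in this average, not in either population. There were 35 members with a negative log2 change in both populations and 4 with a positive one in both, Gins3, Ccnd3, E2f1 and E2f2. The libraries of the groups did not overlap for 24 lower and 0 higher members in LT-HSCs, where this held for 15.9% (lower) and 8.57% (higher) of all genes tested and for 26.1% and 11.1% of genes at 5 CPM or more. In ST-HSCs they did not overlap for 25 lower members and 1 higher, Ccnd3, against 20.9% and 11.9% of all genes and 34.0% and 16.6% of genes at 5 CPM or more.

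**Figure D1:**
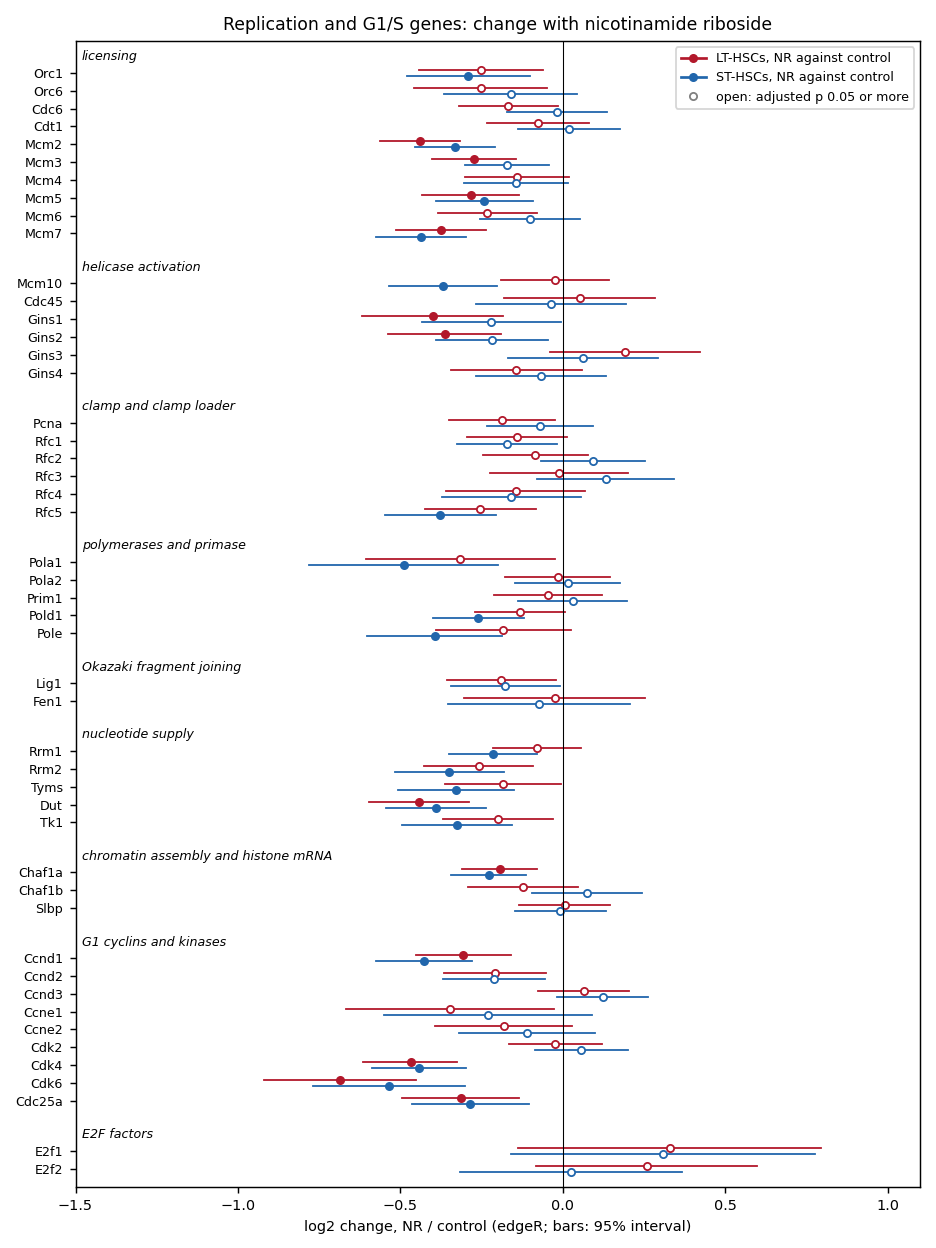
Log2 change with NR for each of the 48 genes, ordered by role, in LT-HSCs (red) and ST-HSCs (blue), with 95% intervals from edgeR; filled points passed an adjusted p of 0.05. All filled points (12 red, 19 blue) lie left of 0, and the E2F factors, Ccnd3 and Gins3 lie right of it without passing.

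Summed over the 48 genes, NR LT-HSCs held 11414 ± 634 CPM against 13212 ± 340 CPM in control LT-HSCs, and NR ST-HSCs 12238 ± 745 CPM against 14067 ± 183 CPM in control ST-HSCs (SD, n = 3 each). The highest NR sum lay under the lowest control sum in both populations (12000 against 12943 CPM in LT-HSCs, 12904 against 13885 CPM in ST-HSCs). Within the NR groups, the sample 3 libraries had the lowest sums, 10741 CPM in LT-HSCs and 11434 CPM in ST-HSCs, and these are the libraries richest in reads outside genes. Without both of them, 7 members were called lower and 0 higher in LT-HSCs, 8 lower and 2 higher (Ccnd3 and Rfc2) in ST-HSCs, and 12 lower and 1 higher in the average. Leaving out 1 library at a time with the same genes tested, 5, 7 and 8 members were called in LT-HSCs without NR samples 1, 2 and 3, and 9, 6 and 10 without control samples 1, 2 and 3. With a replicate block, 18 members fell in LT-HSCs, the 12 and also Orc6, Mcm6, Rfc5, Pola1, Rrm2 and Ccnd2. In ST-HSCs the counts were 18, 17 and 7 without NR samples 1, 2 and 3, and 13, 15 and 13 without control samples 1, 2 and 3. The 7 called in ST-HSCs without NR sample 3 were 6 lower and 1 higher. NR ST-HSC sample 3 was the only library whose absence ended the calls of Mcm2, Mcm10, Rfc5, Pole and Rrm2 in ST-HSCs, with edgeR adjusted p of 0.0531, 0.104, 0.0656, 0.174 and 0.074 in that order. When the filter on low counts was also applied again to the 11 libraries, they were 0 to 4 in LT-HSCs and 0 to 3 in ST-HSCs. Calls that stood in all 10 other settings and in each leave-out with the same genes tested were those of Mcm2, Mcm7, Cdk4, Cdk6 and Dut in LT-HSCs and of Mcm7, Cdk4, Cdk6, Dut and Ccnd1 in ST-HSCs.

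**Figure D2:**
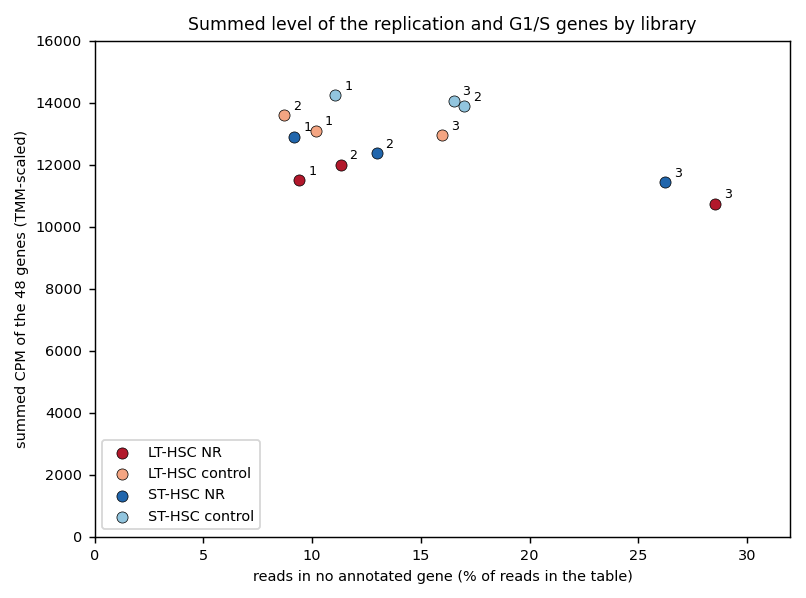
Summed level of the 48 genes in each library (y axis, CPM) against the share of its reads in no annotated gene (x axis, percent); numbers are sample numbers. NR libraries lie below control libraries of their population. The 2 NR libraries beyond 26% hold the lowest sums of their groups. No control library has a share above 17.0%, so NR and control cannot be compared at high shares.

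Promoters were examined because E2F factors drive many of these genes and 27 of the 48 fell together. RefSeq windows (GRCm38.p6) from 250 bases before to 50 bases after the start were at hand for 39 of the 48 genes. The letters TTTCCCGC, TTTGGCGC, TTTCGCGC or TTTGCCGC, core E2F motifs, were searched on both strands, and overlapping matches were each counted. At least 1 of them was present in 15 of the 39 genes (38.5%), against 2.6% of all 27025 genes with a window and 5.06% of genes at 5 CPM or more; per window, 33.3% of the members' 45 windows and 2.26% of all 32851 held one. Among the members that fell in the average, 9 of 22 had a match (40.9%), and among those not called, 6 of 17 (35.3%). The CCAAT box (CCAAT on either strand) was in 59.0% of the 39 members and 41.1% of all genes. Of the 9 genes that fell and held a match, 5 are shown, each as the 180 bases just before the start, 5′ to 3′ on the gene's strand, with the matched E2F letters in capitals.
Mcm5, chr8:75109329-75109508, plus strand: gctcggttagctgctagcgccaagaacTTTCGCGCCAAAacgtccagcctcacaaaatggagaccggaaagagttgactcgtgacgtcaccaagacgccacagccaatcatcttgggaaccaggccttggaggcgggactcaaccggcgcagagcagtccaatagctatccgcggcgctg
Mcm6, chr1:128359706-128359885, minus strand: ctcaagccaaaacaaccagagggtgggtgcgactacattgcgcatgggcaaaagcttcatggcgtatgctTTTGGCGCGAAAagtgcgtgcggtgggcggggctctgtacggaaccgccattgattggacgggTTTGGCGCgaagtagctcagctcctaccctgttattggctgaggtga
Mcm7, chr5:138171884-138172063, minus strand: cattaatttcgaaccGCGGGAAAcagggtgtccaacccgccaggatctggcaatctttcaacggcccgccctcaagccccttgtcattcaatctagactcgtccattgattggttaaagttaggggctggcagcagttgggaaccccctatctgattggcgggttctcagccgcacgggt
Orc1, chr4:108579274-108579453, plus strand: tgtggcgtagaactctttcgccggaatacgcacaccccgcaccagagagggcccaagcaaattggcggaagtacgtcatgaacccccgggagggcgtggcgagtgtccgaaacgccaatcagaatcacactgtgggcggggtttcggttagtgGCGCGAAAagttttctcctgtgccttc
Cdc25a, chr9:109875399-109875578, plus strand: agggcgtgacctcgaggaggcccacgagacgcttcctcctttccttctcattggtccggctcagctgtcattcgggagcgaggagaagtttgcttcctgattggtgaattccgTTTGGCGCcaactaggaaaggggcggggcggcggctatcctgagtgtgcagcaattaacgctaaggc
The position of the match differs between them: it begins 27 bases before the start in Orc1, 67 in Cdc25a and 165 in Mcm7, and pairs of overlapping matches lie 153 and 149 bases before it in Mcm5 and 110 and 106 in Mcm6, which has another at 47. The same Mcm7 window held another match 16 bases after the start, beyond the bases shown, and the other Mcm7 window held 0. Mcm2, Cdk4, Cdk6 and Dut, which fell under all settings in at least 1 population, had none of these letters in their windows. A match is only a description of the letters, and the lack of one says only that these letters are not in the window.

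Among the 10 licensing genes, 4 fell in LT-HSCs (Mcm2, Mcm3, Mcm5 and Mcm7), 4 fell in ST-HSCs (Orc1, Mcm2, Mcm5 and Mcm7) and 7 fell in the average. Mcm2, a subunit of the helicase ring that also binds histones, had 553, 562 and 501 CPM in NR LT-HSC samples 1, 2 and 3, against 739, 759 and 695 CPM in control LT-HSC samples. In ST-HSCs it had 642, 596 and 620 CPM with NR, against 780, 787 and 771 CPM in control culture. Every NR library was below every control library, and the log2 changes were -0.44 ± 0.06 (SE; edgeR adjusted p = 0.000597) in LT-HSCs and -0.33 ± 0.06 (adjusted p = 0.00138) in ST-HSCs. In ST-HSCs this call was lost without a filter on low counts and without NR ST-HSC sample 3 (log2 change -0.26, edgeR adjusted p = 0.0531).

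Mcm7, another ring subunit, gave 458, 480 and 425 CPM in NR LT-HSCs, against 584, 612 and 573 CPM in control LT-HSCs. With NR, ST-HSCs had 488, 481 and 428 CPM, against 654, 618 and 619 CPM in control ST-HSCs. Again the groups did not overlap (log2 change -0.38 ± 0.06, edgeR adjusted p = 0.00273, in LT-HSCs and -0.44 ± 0.06, adjusted p = 0.000497, in ST-HSCs). Mcm6, the ring subunit with the highest level, fell only in the average (-0.17 ± 0.05, edgeR adjusted p = 0.0272), a call lost in 6 of the 9 other settings. Its NR libraries held 1021, 970 and 903 CPM in LT-HSCs, against 1167, 1150 and 1082 CPM in control culture, without overlap. In ST-HSCs the groups overlapped, at 1271, 1077 and 1058 CPM with NR and 1236, 1180 and 1238 CPM in control culture.

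Mcm3 had 610, 637 and 576 CPM in NR LT-HSCs, against 754, 754 and 697 CPM in control LT-HSCs, a log2 change of -0.27 ± 0.06 (edgeR adjusted p = 0.0104). NR ST-HSCs held 767, 687 and 694 CPM and control ST-HSCs 799, 796 and 826 CPM; the groups did not overlap, but the change of -0.17 ± 0.06 did not pass (adjusted p = 0.0653). Mcm5 changed by -0.28 ± 0.07 in LT-HSCs and -0.24 ± 0.07 in ST-HSCs, both past the threshold, with each call kept in 1 of 6 leave-outs. Mcm4, the remaining subunit, did not pass in any comparison (-0.14 ± 0.07 in LT-HSCs and -0.15 ± 0.07 in ST-HSCs). The origin-binding subunit Orc1 fell in ST-HSCs (-0.29 ± 0.09; kept in 1 of 6 leave-outs), and Orc6 fell only in the average (-0.21 ± 0.07). The loaders did not pass: Cdc6 changed by -0.17 ± 0.07 in LT-HSCs and -0.02 ± 0.07 in ST-HSCs, and Cdt1 by -0.08 ± 0.07 and 0.02 ± 0.07.

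The unequal change within the ring can be read inside each library, where no scaling between libraries enters. These ratios were chosen after their values were seen and are given without a test. Mcm2 counts per Mcm4 count were 1.24, 1.25 and 1.30 in NR LT-HSCs, against 1.57, 1.55 and 1.53 in control LT-HSCs. In ST-HSCs the ratio was 1.25, 1.27 and 1.46 with NR, against 1.52, 1.51 and 1.49 in control culture. All 6 NR libraries lay below all 6 control libraries, and NR ST-HSC sample 3 came closest. For Mcm7 counts per Mcm6 count, NR libraries had 0.449, 0.495 and 0.471 in LT-HSCs, against 0.501, 0.532 and 0.530 in control LT-HSCs, and 0.384, 0.446 and 0.405 in ST-HSCs, against 0.529, 0.524 and 0.500 in control ST-HSCs.

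**Figure D3:**
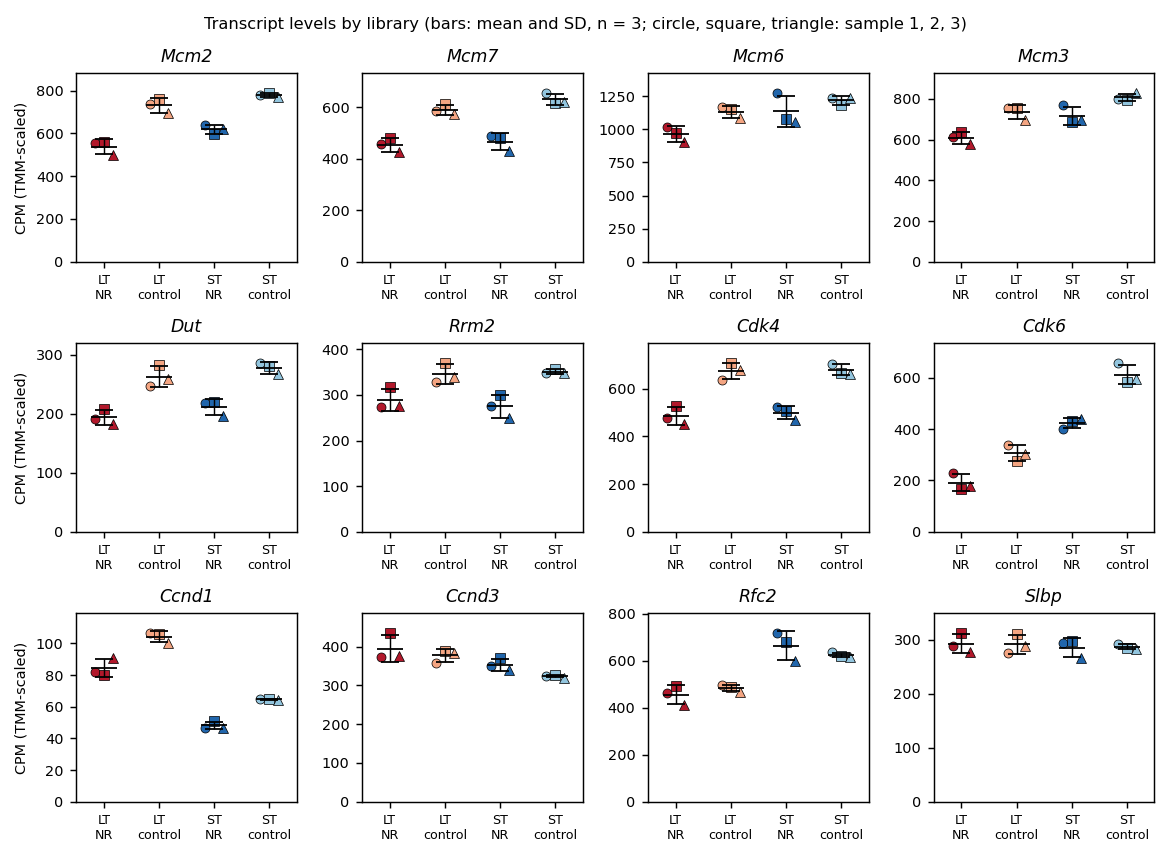
Level in each library (CPM, linear axis from 0) of 12 of the 48 genes, in NR and control LT-HSCs (red) and NR and control ST-HSCs (blue); bars are the mean and SD of 3 samples. Mcm2, Mcm7, Dut and Cdk4 are lower with NR in both populations without overlap, Cdk6 and Ccnd1 also separate LT-HSCs from ST-HSCs, and the groups of Slbp overlap in both.

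Of the 6 genes of helicase activation, Gins1 (-0.40 ± 0.10) and Gins2 (-0.36 ± 0.08), subunits of the GINS complex, fell in LT-HSCs, and Mcm10, which helps the activated helicase unwind DNA, fell in ST-HSCs. All 3 fell in the average. Mcm10 had 128, 115 and 115 CPM in NR LT-HSCs, against 120, 124 and 119 CPM in control LT-HSCs, which overlap. In ST-HSCs it had 115, 124 and 102 CPM with NR, against 148, 139 and 152 CPM in control culture, which do not (log2 change -0.37 ± 0.08, edgeR adjusted p = 0.00509). Without the 2 libraries richest in reads outside genes, the call of Mcm10 in ST-HSCs and those of Gins1 and Gins2 in LT-HSCs were lost; in the average, Gins2 was still called, and Mcm10 and Gins1 were not. Cdc45, the third component of the active helicase, held 97.2, 121 and 104 CPM in NR LT-HSCs and 102, 109 and 99.9 CPM in control LT-HSCs, and 104, 117 and 85.0 CPM in NR ST-HSCs and 104, 104 and 106 CPM in control ST-HSCs. The groups overlapped in both populations (0.05 ± 0.11 and -0.04 ± 0.11). The remaining GINS subunits did not pass: Gins3 had positive changes (0.19 ± 0.11 in LT-HSCs and 0.06 ± 0.11 in ST-HSCs), and Gins4 negative ones (-0.14 ± 0.09 and -0.07 ± 0.09).

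The sliding clamp PCNA and the 5 subunits of its loader, replication factor C, moved unevenly. In ST-HSCs Rfc5 fell; in LT-HSCs none of the 6 passed in edgeR, with Pcna and Rfc5 lower at an unadjusted p under 0.05. Rfc5 levels were 242, 278 and 236 CPM in NR LT-HSCs, against 293, 308 and 301 CPM in control LT-HSCs. In ST-HSCs they were 239, 262 and 218 CPM with NR, against 328, 294 and 312 CPM in control culture. The groups did not overlap in either population, and the log2 changes were -0.25 ± 0.08 (edgeR adjusted p = 0.0611) and -0.38 ± 0.08 (adjusted p = 0.00508). Rfc2, the most abundant loader transcript by counts, had 462, 495 and 413 CPM in NR LT-HSCs and 496, 489 and 468 CPM in control LT-HSCs. NR ST-HSCs held 717, 679 and 600 CPM and control ST-HSCs 636, 621 and 616 CPM. Neither difference passed (-0.08 ± 0.07 and 0.09 ± 0.07), although 3 of the other settings called Rfc2 higher in ST-HSCs. Rfc1 fell only in the average (-0.16 ± 0.05), a call lost in 7 of the 9 other settings. Rfc3 (-0.01 ± 0.10 in LT-HSCs and 0.13 ± 0.10 in ST-HSCs) and Rfc4 (-0.15 ± 0.10 and -0.16 ± 0.10) did not pass, and Pcna changed by -0.19 ± 0.08 in LT-HSCs and -0.07 ± 0.08 in ST-HSCs without passing.

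In ST-HSCs, 3 of the 5 polymerase genes fell: Pola1, the catalytic subunit of the priming polymerase alpha (-0.49 ± 0.13), Pold1, the catalytic subunit of the lagging-strand polymerase delta, and Pole, that of the leading-strand polymerase epsilon. Pold1 had 407, 388 and 376 CPM in NR ST-HSCs, against 468, 460 and 474 CPM in control ST-HSCs (log2 change -0.26 ± 0.06, edgeR adjusted p = 0.0135). For Pole the values were 190, 202 and 175 CPM with NR, against 249, 243 and 252 CPM in control ST-HSCs (-0.40 ± 0.10, edgeR adjusted p = 0.0123). Both separated fully in ST-HSCs. In LT-HSCs neither did: Pold1 had 381, 437 and 367 CPM with NR and 420, 444 and 436 CPM in control culture, and Pole 236, 189 and 179 CPM with NR and 248, 213 and 225 CPM in control culture. No polymerase gene passed in LT-HSCs, where Pola1 alone was lower at an unadjusted p under 0.05. Without the 2 libraries richest in reads outside genes, none of these 3 calls in ST-HSCs stood. The partner subunit Pola2 (-0.02 ± 0.08 and 0.01 ± 0.08) and the primase subunit Prim1 (-0.05 ± 0.08 and 0.03 ± 0.08) had changes near 0 in LT-HSCs and ST-HSCs, with 95% intervals that together ran from -0.21 to 0.20.

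DNA ligase 1 (Lig1), which seals Okazaki fragments, held 243, 249 and 211 CPM in NR LT-HSCs, against 260, 269 and 272 CPM in control LT-HSCs. In ST-HSCs it held 276, 229 and 235 CPM with NR and 278, 274 and 284 CPM in control culture. LT-HSC groups did not overlap and ST-HSC groups did; only the average passed (-0.18 ± 0.06, edgeR adjusted p = 0.0266), and it was lost in 6 of the 9 other settings. Fen1 was low, at 15.4, 17.1 and 12.2 CPM in NR LT-HSCs and 14.9, 15.3 and 15.4 CPM in control LT-HSCs, and 11.9, 13.2 and 13.7 CPM in NR ST-HSCs and 12, 15.1 and 13.8 CPM in control ST-HSCs. Its groups overlapped in both populations (-0.03 ± 0.13 and -0.07 ± 0.13).

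Nucleotide supply was the role in which every member fell in ST-HSCs: 5 of 5, against 1 of 5, Dut, in LT-HSCs. In all, 4 of the 5 (Rrm2, Tyms, Dut and Tk1) were lower in LT-HSCs at an unadjusted p under 0.05. Dut, which removes dUTP before it can be built into DNA, had 191, 208 and 183 CPM in NR LT-HSCs, against 248, 283 and 259 CPM in control LT-HSCs. With NR, ST-HSCs had 218, 220 and 196 CPM, against 286, 281 and 267 CPM in control ST-HSCs. The log2 changes were -0.44 ± 0.07 (edgeR adjusted p = 0.00206) in LT-HSCs and -0.39 ± 0.07 (adjusted p = 0.0021) in ST-HSCs, with no overlap.

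Ribonucleotide reductase makes deoxynucleotides from a large subunit, Rrm1, and a small one, Rrm2. Rrm2 reached 273, 318 and 276 CPM in NR LT-HSCs, against 328, 369 and 341 CPM in control LT-HSCs. In ST-HSCs there were 276, 300 and 250 CPM with NR, against 348, 357 and 348 CPM in control culture. Neither pair of groups overlapped, and the change passed in ST-HSCs (-0.35 ± 0.08, edgeR adjusted p = 0.00733) but not in LT-HSCs (-0.26 ± 0.08, adjusted p = 0.0527). Rrm1 had 780, 764 and 702 CPM in NR LT-HSCs and 796, 818 and 763 CPM in control LT-HSCs, which overlap, and 729, 751 and 646 CPM in NR ST-HSCs against 828, 807 and 835 CPM in control ST-HSCs, which do not (-0.22 ± 0.06, edgeR adjusted p = 0.0306). Thymidylate synthase (Tyms, -0.33 ± 0.08) and thymidine kinase 1 (Tk1, -0.33 ± 0.08) also fell in ST-HSCs. Without the 2 libraries richest in reads outside genes, Dut was the only one of the 5 called in ST-HSCs.

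Chromatin assembly factor 1 places histones behind the fork. Its large subunit Chaf1a fell in both populations (-0.20 ± 0.05, edgeR adjusted p = 0.0351, and -0.23 ± 0.05, adjusted p = 0.00968), but in LT-HSCs the call held in only 4 of the 10 other settings and in none of the 6 leave-outs. The partner subunit Chaf1b had 191, 220 and 185 CPM in NR LT-HSCs and 210, 226 and 213 CPM in control LT-HSCs, and 243, 209 and 208 CPM in NR ST-HSCs and 215, 202 and 210 CPM in control ST-HSCs. It overlapped in both and did not pass (-0.12 ± 0.08 and 0.07 ± 0.08). Slbp, which binds the stem-loop of histone mRNAs in S phase, had 288, 312 and 278 CPM in NR LT-HSCs and 275, 311 and 289 CPM in control LT-HSCs. In ST-HSCs its levels were 293, 297 and 266 CPM with NR and 292, 286 and 283 CPM in control culture. Its changes of 0.01 ± 0.07 and -0.01 ± 0.07 had 95% intervals within -0.15 and 0.15.

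Cdk4 and Cdk6, the kinases that pair with D-type cyclins, had the largest falls by log2 change among members called in LT-HSCs. Cdk4 had 477, 529 and 454 CPM in NR LT-HSCs, against 638, 707 and 677 CPM in control LT-HSCs. In ST-HSCs it had 522, 507 and 469 CPM with NR, against 706, 668 and 664 CPM in control culture. The log2 changes were -0.47 ± 0.07 (edgeR adjusted p = 0.00103) and -0.44 ± 0.07 (adjusted p = 0.000624). Cdk6 measured 229, 166 and 177 CPM in NR LT-HSCs, against 339, 277 and 303 CPM in control LT-HSCs. NR ST-HSCs held 400, 431 and 438 CPM and control ST-HSCs 656, 585 and 597 CPM. Its log2 changes were -0.69 ± 0.11 (edgeR adjusted p = 0.00186) and -0.54 ± 0.11 (adjusted p = 0.00408). For both kinases every NR library lay below every control library of its population. Cdk2, the partner of cyclin E, had 191, 218 and 195 CPM in NR LT-HSCs and 203, 210 and 200 CPM in control LT-HSCs, and 223, 231 and 205 CPM in NR ST-HSCs and 208, 221 and 205 CPM in control ST-HSCs. Its groups overlapped, and the changes were -0.02 ± 0.07 and 0.06 ± 0.07.

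The D-type cyclins did not move as one. Ccnd1 had 82.0, 80.3 and 90.8 CPM in NR LT-HSCs, against 106, 106 and 100 CPM in control LT-HSCs, and 46.9, 51.0 and 46.6 CPM in NR ST-HSCs, against 65.0, 64.8 and 64.5 CPM in control ST-HSCs. The groups did not overlap, and it fell in both (-0.31 ± 0.07, edgeR adjusted p = 0.0114, and -0.43 ± 0.07, adjusted p = 0.000917). The call in LT-HSCs was lost without NR sample 1 (adjusted p = 0.0757) or 2 (adjusted p = 0.103). Ccnd2, the most abundant of the 3 by counts, had 465, 548 and 452 CPM in NR LT-HSCs and 543, 589 and 561 CPM in control LT-HSCs, and 426, 469 and 420 CPM in NR ST-HSCs and 513, 510 and 500 CPM in control ST-HSCs. Its groups overlapped in LT-HSCs only, and it fell in the average (-0.21 ± 0.05, edgeR adjusted p = 0.00867), a call lost without NR ST-HSC sample 3 (adjusted p = 0.0516). Ccnd3 had 373, 434 and 376 CPM in NR LT-HSCs and 359, 390 and 384 CPM in control LT-HSCs. With NR, ST-HSCs held 349, 370 and 339 CPM, above the 325, 326 and 320 CPM of control ST-HSCs. Its changes did not pass (0.06 ± 0.07 and 0.12 ± 0.07; edgeR adjusted p = 0.661 and 0.256), but 5 of the 10 other settings, with relative log expression or upper-quartile scaling among them, called it higher in ST-HSCs.

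Within each library, Ccnd3 took 40.6%, 40.8% and 41.0% of the counts of the 3 D-type cyclins in NR LT-HSCs, against 35.6%, 35.9% and 36.8% in control LT-HSCs. Its share was 42.5%, 41.6% and 42.1% in NR ST-HSCs, against 36.0%, 36.2% and 36.2% in control ST-HSCs. The share was higher in all 6 NR libraries than in any control library. Ccnd1's share was 5.70%, 5.73% and 5.79% in NR ST-HSCs, against 7.2%, 7.2% and 7.29% in control ST-HSCs, while in LT-HSCs it overlapped (8.91%, 7.56% and 9.88% with NR and 10.6%, 9.80% and 9.59% in control culture). These shares too were chosen after their values were seen and carry no test.

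**Figure D4:**
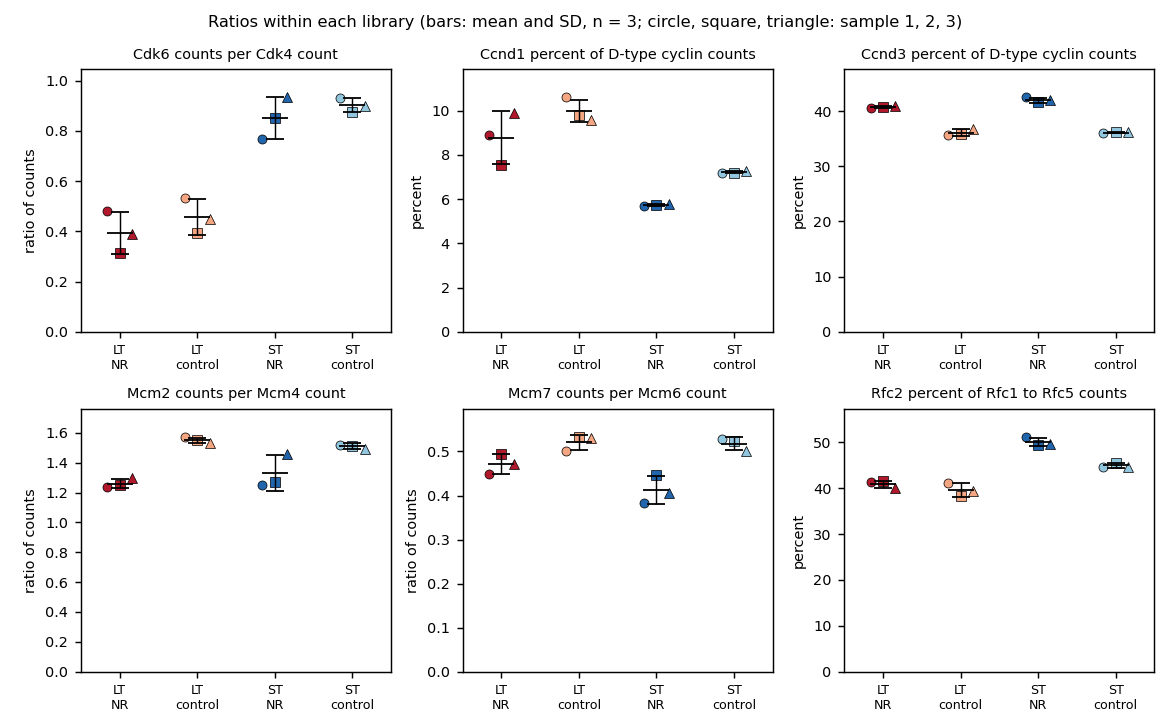
Ratios of counts within each library, which need no scaling between libraries; circle, square and triangle are samples 1, 2 and 3, bars the mean and SD of 3 samples. Ccnd3's percent of D-type cyclin counts is above 40 in every NR library and at most 36.8 in control libraries, and Mcm2 per Mcm4 is lower in every NR library.

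E-type cyclins, which activate CDK2 at the G1/S boundary, did not pass. Ccne1 had 24.5, 27.3 and 25.8 CPM in NR LT-HSCs, against 31.2, 38.2 and 29.5 CPM in control LT-HSCs, without overlap (-0.35 ± 0.15, edgeR adjusted p = 0.184). In ST-HSCs it had 30.2, 21.8 and 19.8 CPM with NR and 28.3, 25.4 and 30.7 CPM in control culture, which overlap (-0.23 ± 0.15). Ccne2 had 75.6, 65.8 and 66.7 CPM in NR LT-HSCs and 75.1, 85.8 and 75.4 CPM in control LT-HSCs, and 72.4, 72.0 and 63.4 CPM in NR ST-HSCs and 65.3, 81.1 and 77.9 CPM in control ST-HSCs, overlapping in both (-0.18 ± 0.10 and -0.11 ± 0.10). Cdc25a, the phosphatase that removes inhibitory phosphates from CDK2, fell in LT-HSCs (-0.32 ± 0.08, edgeR adjusted p = 0.03) and ST-HSCs (-0.28 ± 0.08, adjusted p = 0.0321), calls that 4 and 6 of the 10 other settings lost.

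E2f1 and E2f2, activators of this program, were the members with the widest intervals. E2f1 had 63.1, 89.4 and 79.0 CPM in NR LT-HSCs and 43.5, 75.6 and 65.3 CPM in control LT-HSCs, and 81.7, 61.1 and 52.4 CPM in NR ST-HSCs and 58.5, 58.4 and 40.9 CPM in control ST-HSCs. Its groups overlapped in both populations (0.33 ± 0.22 and 0.31 ± 0.22), and 3 of the 9 other settings called it higher in the average. For E2f2 there were 30.7, 36.8 and 31.2 CPM in NR LT-HSCs and 25.4, 24.1 and 33.2 CPM in control LT-HSCs, and 24.8, 27.2 and 19.1 CPM in NR ST-HSCs and 25.5, 25.0 and 19.6 CPM in control ST-HSCs. It overlapped as well (0.26 ± 0.16 and 0.03 ± 0.16).

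More members passed in ST-HSCs than in LT-HSCs, but the effect itself was not shown to differ. For the difference of the NR effects, ST-HSCs minus LT-HSCs, 0 of the 48 passed in edgeR, as did 2 of 19830 genes (0.0101% called higher and 0.0% called lower), and DESeq2 and limma-voom also called 0 members. At an unadjusted p under 0.05 there was 1 member, Mcm10, with a difference of -0.34 ± 0.11 (edgeR adjusted p = 0.585). Chaf1b came next, at 0.20 ± 0.11 (adjusted p = 0.952). The median difference over the 48 was 0.02, against -0.05 over all genes tested. Standard errors of these differences ran from 0.08 for Chaf1a and Mcm2 to 0.31 for E2f1, so small differences between the populations were not detectable at this depth and number of samples.

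LT-HSCs were then compared with ST-HSCs, which asked whether the stem cells with the longer repopulating life carry a different replication program. In control culture Ccnd1 was higher in LT-HSCs and Cdk6 and Rfc2 were lower, 2.08% and 4.17% of the 48. Over all genes tested, 3.51% were called higher and 1.5% lower, and among genes at 5 CPM or more 5.19% and 2.59%. With NR, Ccnd1 was again higher, and Cdk6, Rfc2, Cdt1 and Mcm3 were lower, 2.08% and 8.33% of the 48. The shares with NR were 3.8% and 2.27% of all genes, and 5.71% and 3.96% at 5 CPM or more. The median log2 difference over the 48 genes, LT-HSCs over ST-HSCs, was -0.05 in control culture and -0.04 with NR, against -0.05 and 0.02 over all genes tested. Libraries did not overlap for 4 higher and 14 lower members in control culture, against 12.4% of all genes in each direction (16.2% higher and 17.2% lower at 5 CPM or more), and for 4 higher and 7 lower with NR, against 9.96% and 7.59% (12.7% and 10.9%). These comparisons share their libraries with those of NR against control.

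Cdk6 was about equally far apart in both cultures: from the library values given above, LT-HSCs averaged 191 ± 33.4 CPM with NR and 307 ± 31.2 CPM in control culture, and ST-HSCs 423 ± 20.3 and 613 ± 38.1 CPM (SD, n = 3). The log2 difference was -1.15 ± 0.11 with NR (edgeR adjusted p = 2.74e-05) and -1.0 ± 0.11 in control culture (adjusted p = 0.000103). Cdk4 did not pass between the populations, and Cdk6 counts per Cdk4 count were 0.479, 0.313 and 0.391 in NR LT-HSCs and 0.532, 0.393 and 0.447 in control LT-HSCs, against 0.766, 0.851 and 0.933 in NR ST-HSCs and 0.930, 0.876 and 0.9 in control ST-HSCs. The highest LT-HSC ratio was below the lowest ST-HSC ratio, and NR and control ratios overlapped within each population. These ratios carry no test. Ccnd1 went the other way, with a log2 difference of 0.81 ± 0.07 with NR (edgeR adjusted p = 1.15e-05) and 0.69 ± 0.07 in control culture (adjusted p = 4.34e-05). Its lowest LT-HSC library (80.3 CPM) lay above its highest ST-HSC library (65.0 CPM).

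Rfc2 was lower in LT-HSCs by -0.54 ± 0.07 with NR (edgeR adjusted p = 0.000565) and -0.37 ± 0.07 in control culture (adjusted p = 0.00989), and all 6 LT-HSC libraries lay below all 6 ST-HSC libraries. The call in control culture was lost without control LT-HSC sample 3 (-0.34, edgeR adjusted p = 0.0555). Within the loader, Rfc2 made up 41.3%, 41.5% and 40.0% of Rfc1 to Rfc5 counts in NR LT-HSCs and 41.2%, 38.3% and 39.4% in control LT-HSCs, against 51.1%, 49.4% and 49.7% in NR ST-HSCs and 44.7%, 45.6% and 44.6% in control ST-HSCs. The share in NR ST-HSCs was above every other library, but these shares carry no test. No other loader subunit differed between the populations in edgeR's test. Cdt1 (-0.27 ± 0.07, edgeR adjusted p = 0.0494) and Mcm3 (-0.24 ± 0.06, adjusted p = 0.0307) passed only with NR; each lost its call in 3 of the 10 other settings and kept it in 1 of the 6 leave-outs. Without NR LT-HSC sample 1, 2 or 3, or NR ST-HSC sample 1, only 3 members were called with NR. With a replicate block, 9 were: Mcm2, Mcm6 and Gins1 as lower and Tk1 as higher besides the 5.

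**Figure D5:**
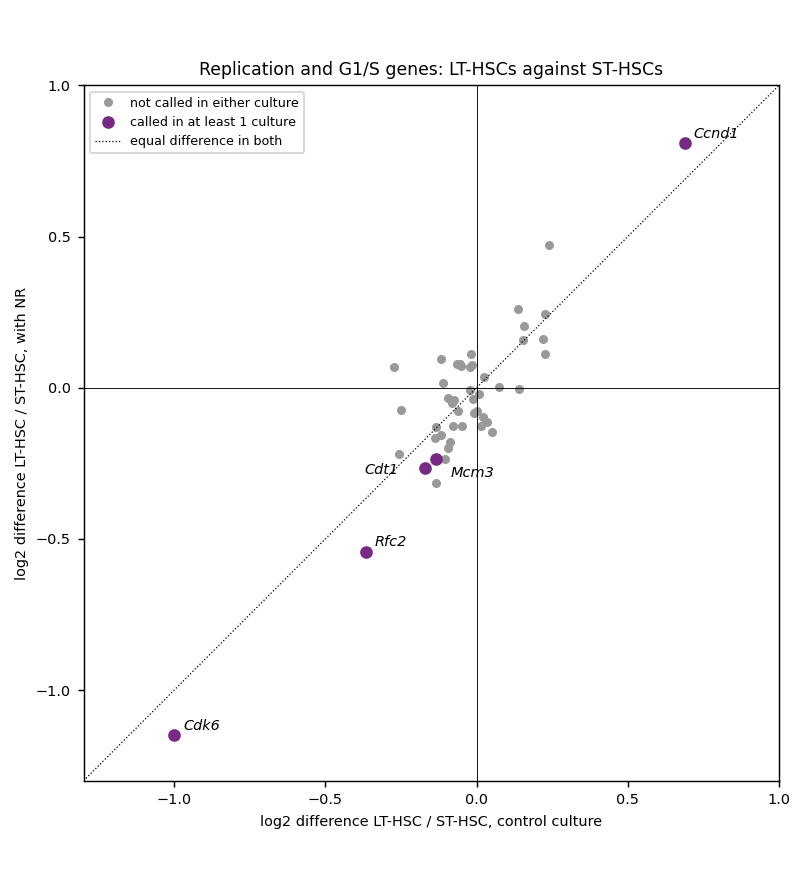
Log2 difference of LT-HSCs over ST-HSCs for each of the 48 genes, in control culture (x axis) and with NR (y axis); purple points were called in at least 1 culture. Ccnd1 lies at the upper right and Cdk6 and Rfc2 at the lower left; E2f2, which was not called, lies at 0.24 in control culture and 0.47 with NR.

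Another 73 genes of the same pathway were listed beside the 48, with earlier results of these data known. Of the 72 tested, 15 (20.8%) were lower and 3 (4.17%) higher with NR in LT-HSCs. In ST-HSCs 27 (37.5%) were lower and 2 (2.78%) higher, and in the average 33 (45.8%) lower and 3 (4.17%) higher. Of genes at 5 CPM or more, 14%, 20% and 28.6% were lower in that order, and 4.2%, 9.59% and 12.7% higher. Rises were thus no more frequent among the 72 than in that background. The medians of the 72 were -0.14, -0.19 and -0.15. The falls reached the fork (Rpa3, the smallest subunit of the protein that coats single strands, -0.43 ± 0.09 and -0.42 ± 0.09 in LT-HSCs and ST-HSCs), the E2F partner Tfdp1 (-0.41 ± 0.07 and -0.41 ± 0.07), the E2F family member E2f4 (-0.39 ± 0.06 and -0.46 ± 0.06), the maintenance methylation factor Uhrf1 (-0.31 ± 0.05 and -0.35 ± 0.05) and the nucleotide kinase Nme1 (-0.55 ± 0.09 and -0.45 ± 0.09). Each of these passed in both populations.

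The 3 that rose in LT-HSCs were Cdkn1a, Rbl2 and Cdkn2c, genes of CDK inhibitors and of a retinoblastoma relative. The other retinoblastoma family genes listed, Rb1 and Rbl1, did not pass in either population. Cdkn1a encodes the CDK inhibitor p21 and had 77.5, 98.0 and 72.1 CPM in NR LT-HSCs, against 30.0, 30.9 and 30.5 CPM in control LT-HSCs, and 149, 128 and 128 CPM in NR ST-HSCs, against 19.8, 21 and 20.8 CPM in control ST-HSCs. Cdkn1a counts per Cdk4 count, within a library, averaged 0.169 ± 0.014 in NR LT-HSCs against 0.0453 ± 0.0016 in control LT-HSCs, and 0.270 ± 0.016 in NR ST-HSCs against 0.0303 ± 0.0019 in control ST-HSCs (SD, n = 3). Cdk4 itself fell with NR in both populations, so this ratio also holds that fall and overstates the rise of Cdkn1a alone. It carries no test. Rbl2, the retinoblastoma relative p130, had 233, 200 and 177 CPM in NR LT-HSCs, against 153, 146 and 146 CPM in control LT-HSCs. In ST-HSCs it had 237, 215 and 188 CPM with NR, against 140, 135 and 136 CPM in control culture, and it rose in both (0.46 ± 0.10 and 0.64 ± 0.10). Cdkn2c, an inhibitor of CDK4 and CDK6, had 62.3, 65.7 and 46.8 CPM in NR LT-HSCs, against 44.4, 42.2 and 43.8 CPM in control LT-HSCs, and rose there (0.42 ± 0.12, edgeR adjusted p = 0.0399), a call kept in 1 of 6 leave-outs. It did not pass in ST-HSCs (0.12 ± 0.12). Rrm2b, an alternative small subunit of ribonucleotide reductase, did not pass either (0.19 ± 0.20 in LT-HSCs and 0.39 ± 0.20 in ST-HSCs). Of the other inhibitors, Cdkn1b, Cdkn1c, Cdkn2b and Cdkn2d did not pass with NR in either population, and Cdkn2a, at most 0.242 CPM, was too low to test. Cdkn1c (p57) was higher in LT-HSCs, at 21.9, 30.0 and 22.9 CPM against 13.9, 10.9 and 12.4 CPM in ST-HSCs with NR (log2 difference 1.01 ± 0.14, edgeR adjusted p = 0.000645) and at 26.9, 30.2 and 26.9 CPM against 15.8, 15.5 and 12.5 CPM in ST-HSCs in control culture (0.94 ± 0.14, adjusted p = 0.00106).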

How the data were processed

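Read counts per Ensembl gene for 12 libraries were used as deposited by the authors in 1 table; 0 columns were left out. Per the labels' protocols, libraries were made from 2.5 ng RNA with SMART-seq v4 and Nextera XT. Per the submitters' processing notes, FastQC 0.11.2, STAR 2.5.0b and HTSeq 0.6.1 were used; which build, annotation and strand setting they used is not given in the sources used here. Reads in no gene (8.69% to 28.6%) and ambiguous reads (3.30% to 4.38%) stayed out of library sizes. Symbols, exon lengths and exon overlaps come from GENCODE M21, and promoter sequences from RefSeq (GRCm38.p6). No libraries of a group were duplicates (chi-square per degree of freedom 6.30 to 37.2).

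Counts were tested with edgeR 4.0.16 (R 4.3.3; quasi-likelihood fit and two-sided test) on all 12 samples with 4 group means, TMM factors and a filter on low counts (filterByExpr, 10 in a sample and 15 in all), leaving 19830 genes; the biological coefficient of variation was 0.402. P-values were adjusted by Benjamini-Hochberg over all genes tested within each of 6 comparisons, and genes under 0.05 were called. The standard error is that implied by the test, and intervals are 95%. The fit was tested on simulated data. Settings also tried were DESeq2 1.42.0, limma-voom with weights per sample (limma 3.58.1), scaling by relative log expression or by the upper quartile, no filter, a stricter filter (5 CPM), only the groups compared, a replicate block, the unassigned share as a covariate, and libraries left out.

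Values in every library are given for up to 4 called members with the smallest p in each comparison (2 where none was called), the 2 most abundant members of each role, all cyclins, kinases and E2F factors, and the CDK inhibitors that changed. Of the other pathway genes, CDK inhibitors and those with the smallest p in each direction are named. Over all tested genes, deviations from the group means correlated positively in every same-numbered pair between NR and control LT-HSCs (0.51, 0.25 and 0.713). The same held between NR LT-HSCs and NR ST-HSCs (0.738, 0.151 and 0.839). The numbers were taken to pair the samples in those comparisons only, and that pairing is uncertain for sample 2. Control LT-HSC sample 2 gave 0.328 with NR LT-HSC sample 1, and NR LT-HSC sample 2 gave 0.366 with NR ST-HSC sample 1. Among genes at 5 CPM or more these were -0.002 and -0.25, and the same-numbered sample 2 pairs gave 0.24 and 0.332. The main fit had no replicate block. The genes, lists and settings were chosen with earlier results of these data known.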

Additional observations from a re-analysis of the deposited data

Results flagged for a closer look

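Among the genes listed beside the 48, Cdkn1a was flagged because its NR effect differed between the populations: the log2 change was 2.72 ± 0.11 in ST-HSCs and 1.44 ± 0.11 in LT-HSCs, a difference of 1.28 ± 0.15 (SE; edgeR adjusted p = 0.0235, n = 3 per group, model fitted across 19830 genes). It was higher with NR in all 6 NR libraries. The difference was called in all 9 other settings and in 5 of 12 leave-outs with the same genes tested. No member of the 48 was flagged.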

How the results depend on the processing

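Of the counts of members called, those for NR against control moved by over 1.5 times with no filter on low counts (7 in LT-HSCs and 9 in ST-HSCs, against 12 and 19) and after setting aside the sample 3 library of each NR group, the pair with most unassigned reads (7 in LT-HSCs, 10 in ST-HSCs and 13 in the average). Between the populations, the counts of 3 in control culture and 5 under NR were 6 and 9 with upper-quartile factors, 5 and 10 with DESeq2, 7 in control culture with limma-voom, 7 and 11 with a stricter filter, 6 and 3 with only the groups compared, 5 and 9 with the unassigned share as a covariate, and 3 with NR without those 2 libraries. Leaving out 1 library at a time with the same genes tested gave 5 to 10 members in LT-HSCs, 7 to 18 in ST-HSCs, 19 to 29 in the average, 2 to 3 between populations in control culture and 3 to 5 with NR. With the filter applied again these were 0 to 4, 0 to 3, 7 to 14, 2 to 2 and 2 to 4. For NR against control, these counts held up to 1 higher member in ST-HSCs and up to 2 in the average. The cause was not tested. The difference of effects gave 0 under each setting. No called member reversed its sign in any setting. In the replicate block, 18 members were called in LT-HSCs, 21 in ST-HSCs, 29 in the average, 5 between populations in control culture and 9 with NR. The numbers were not taken to pair samples between NR and control ST-HSCs (same-numbered r of 0.669, -0.061 and 0.549) or between the populations in control culture (0.425, -0.232 and 0.43), where the same-numbered r of sample 2 was negative. Over all groups r ran from -0.273 to 0.839 in 18 same-numbered pairs and from -0.784 to 0.525 in 36 others. Precision was lowest for E2f1, E2f2 and Ccne1, whose log2 changes in LT-HSCs had standard errors of 0.22, 0.16 and 0.15.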
